A study of Mus musculus with 6 samples.

Results

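Cyp21a1, Cyp11b1, Cyp11b2, Mc2r and Mrap encode the adrenal-type part of mouse steroid production, and their transcripts were examined in fetal gonads. These 5 genes were chosen by name, and each was read by the 1 probe set that the array annotation gives to it alone, out of 19937 genes with such a probe set. RNA came from gonads at E13.5 (embryonic day), dissected free of the mesonephros, from mice on a mixed C57BL6/J and 129 background, and was hybridised to 6 single-colour Affymetrix arrays. Sox9 mutant gonads, of genotype Sox9flox/flox; Sf1:creTr/+, carry floxed Sox9 alleles and a Cre transgene driven by Sf1 (Nr5a1) sequence, and gave 3 arrays (3, 4 and 6) with 12 gonads in each pool. Gonads labelled as wild type gave 3 arrays (1, 2 and 5) with 6 gonads in each pool. With no group for Cre or for the floxed alleles by themselves, the effects of these, of pool size and of the loss of Sox9 cannot be told apart. The labels name neither the sex of the embryos nor the litters behind the pools, so p-values measure only the spread between these arrays, which may be technical.

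Adrenal cortex and gonad both arise from Nr5a1-expressing precursors, and both start steroid synthesis from cholesterol with the same first enzymes. What sets the adrenal cortex apart is Cyp21a1, a steroid hydroxylase which opens the path to corticosteroids, 11β-hydroxylase (Cyp11b1), which makes corticosterone, and aldosterone synthase (Cyp11b2). Adrenocortical cells also carry the receptor for adrenocorticotropic hormone (ACTH), Mc2r, together with Mrap, the accessory protein that Mc2r needs to reach the cell surface and signal. Small numbers of cells with such adrenal-type transcripts are known from the fetal mouse testis, and ovaries of mice without Wnt4 are known to gain them. The comparison here asks how these transcripts stood in gonads without normal Sox9, the transcription factor of Sertoli cells.

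Cyp21a1, Mrap and Mc2r fell in the Sox9 mutant, by 0.81, 0.77 and 1.01 on the log2 scale. Cyp11b1 was 0.55 log2 lower without passing the test, and Cyp11b2 showed no measurable difference. In the limma fit with Benjamini-Hochberg adjustment over all probe sets (threshold 0.05), 3 of the 5 genes were called lower and 0 higher, 4 having an unadjusted p under 0.05. Of all genes, 4.3% were called lower, 2.64% higher and 6.94% in either direction, and of all probe sets 5.72% were called. An unadjusted limma p under 0.05 was found for 4324 of the 19937 genes. The median difference of the 5 genes was -0.77 log2, against 0.0041 over all genes. In bulk RNA of this kind, fewer cells of a type and less RNA per cell cannot be told apart.

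All 5 genes lay below the middle of the genes measured. By the mean over 6 arrays, 57.6% (Cyp11b2) to 84.0% (Mc2r) of all genes were brighter. Background was marked at 6.67 log2, below which 95% of the mean levels of 1206 probe sets for olfactory and vomeronasal receptors lay; these receptors serve smell and pheromone detection. In Sox9 mutant gonads 1 of the 5 genes, Cyp11b2, had a group mean above that mark, and in wild-type gonads 4 of the 5 did, Mc2r being the exception. RMA, the method behind these values, tends to compress differences close to background, so the fold changes of such genes may be understated. This was not tested here. A value under the mark does not show that a transcript was absent.

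Cyp21a1 gave the most uniform difference among the 3 genes that fell. It measured 6.40, 6.39 and 6.43 log2 on Sox9 mutant arrays 3, 4 and 6, and 7.18, 7.32 and 7.14 log2 on wild-type arrays 1, 2 and 5. The groups did not overlap, with a gap of 0.71 log2 between the highest mutant and the lowest wild-type array, and all 3 mutant arrays lay under the background mark while all 3 wild-type arrays lay above it. The group means were 6.41 ± 0.02 log2 in the Sox9 mutant and 7.22 ± 0.10 log2 in wild type (SD, n = 3 each), a difference of -0.81 ± 0.11 log2 (SE; limma adjusted p = 0.0033). Wild type exceeded the mutant 1.75-fold, with a 95% interval of 1.48 to 2.07. On the mutant arrays 8.37% to 8.96% of these receptor probe sets were brighter than Cyp21a1, against 0.995% to 2.07% on the wild-type arrays. The mouse genome also holds a Cyp21a1 pseudogene, Cyp21a2-ps, and whether the probe set reads its transcripts was not tested.

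**Figure D1:**
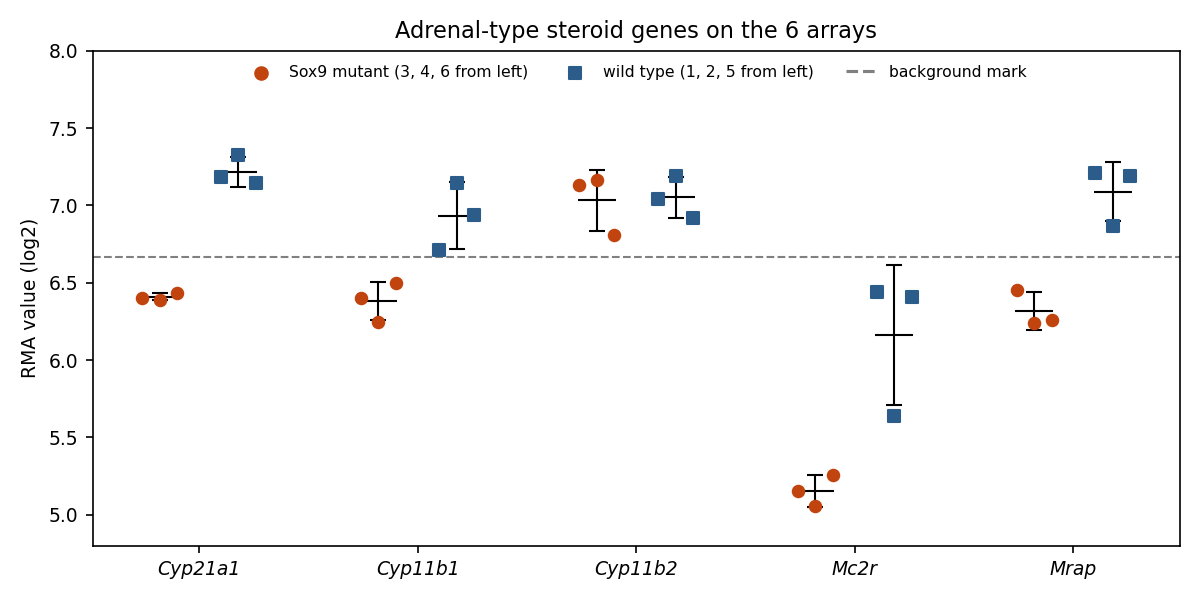
RMA values (log2, vertical axis) of Cyp21a1, Cyp11b1, Cyp11b2, Mc2r and Mrap on each array, with Sox9 mutant arrays 3, 4 and 6 as circles left of wild-type arrays 1, 2 and 5 as squares; long bars are group means, error bars SD (n = 3), and the dashed line is the background mark of 6.67 log2. Circles and squares separate for every gene shown except Cyp11b2, and the 3 wild-type values of Mc2r stay under the mark.

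Cyp11b1, whose enzyme completes corticosterone, pointed the same way with a smaller distance. Its values were 6.40, 6.25 and 6.50 log2 on mutant arrays 3, 4 and 6, against 6.71, 7.15 and 6.94 log2 on wild-type arrays 1, 2 and 5. These groups did not overlap either, but wild type 1 lay only 0.22 log2 above mutant 6. The difference was -0.55 ± 0.14 log2 (SE) with a 95% interval of -0.87 to -0.24, and its limma adjusted p of 0.0537 missed the threshold. That p went below 0.05 under 5 of 14 alternative settings, for example 0.0381 after a further quantile normalization, and reached 0.283 without wild type 5 and mutant 4 together.

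Cyp11b2, the last enzyme on the way to aldosterone, showed overlapping groups. It measured 7.13, 7.16 and 6.81 log2 on mutant arrays 3, 4 and 6, and 7.04, 7.19 and 6.92 log2 on wild-type arrays 1, 2 and 5. All 6 arrays lay above the background mark, and 1.49% to 4.31% of the receptor probe sets were brighter on any array. The group means were 7.03 ± 0.20 log2 in the Sox9 mutant and 7.05 ± 0.14 log2 in wild type (SD, n = 3 each), and the difference was -0.02 ± 0.14 log2 (SE; limma adjusted p = 0.967). Its 95% interval, -0.33 to 0.29 log2, leaves room for a change of about 1.25-fold in wild type over mutant, but does not include a fall as large as that of Cyp21a1.

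Cyp11b1 and Cyp11b2 are paralogues that stand next to each other in the GRCm38.p6 gene table. Reads of one by the probes of the other were not tested, so the identity of low signals in this pair is uncertain. Taken within each array, the value of Cyp11b1 minus that of Cyp11b2 differed between the genotypes by -0.53 log2. An exact permutation test over the 6 arrays gave p = 0.2 (2-sided), and p = 0.1 after a further quantile normalization or without mutant 6. As 0.1 is the smallest p that 3 arrays against 3 allow, this test cannot show whether the 2 changes differ. That contrast was chosen after the values had been seen.

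Mc2r, the ACTH receptor, had the largest point estimate and the least certain level. It measured 5.15, 5.05 and 5.26 log2 on mutant arrays 3, 4 and 6, against 6.44, 5.64 and 6.41 log2 on wild-type arrays 1, 2 and 5. The mutant arrays were tightly grouped, while wild type 2 lay well below the other two wild-type arrays and within 0.38 log2 of mutant 6. The group means were 5.15 ± 0.10 log2 in the Sox9 mutant and 6.16 ± 0.45 log2 in wild type (SD, n = 3 each), both under the background mark. The difference was -1.01 ± 0.20 log2 (SE; limma adjusted p = 0.0223), and wild type exceeded the mutant 2.01-fold with a 95% interval of 1.46 to 2.77. Of the receptor probe sets, 37.1% to 45.4% were brighter than Mc2r on the mutant arrays and 5.39% to 23.3% on the wild-type arrays. The call was lost when mutant 3 or 4 or wild type 1 or 5 was left out, with limma adjusted p of 0.0815, 0.0761, 0.103 and 0.0761.

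Mrap, which pairs with Mc2r, stood above background in wild type. It measured 6.46, 6.24 and 6.26 log2 on mutant arrays 3, 4 and 6, and 7.21, 6.87 and 7.19 log2 on wild-type arrays 1, 2 and 5. Every mutant value lay under the mark and every wild-type value above it, with 0.41 log2 between the groups. The group means were 6.32 ± 0.12 log2 in the Sox9 mutant and 7.09 ± 0.19 log2 in wild type (SD, n = 3 each), a difference of -0.77 ± 0.13 log2 (SE; limma adjusted p = 0.011). This corresponds to 1.71-fold more in wild type, with a 95% interval of 1.38 to 2.10. Wild type 2 was the lowest wild-type array for both Mrap and Mc2r, but the highest for Cyp21a1, Cyp11b1 and Cyp11b2. Without wild type 1 the adjusted p of Mrap was 0.0609.

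Groups did not overlap for 4 of the 5 genes, all lower in the mutant, where 16.6% of all genes were lower with no overlap. Exact permutation of the array labels gave p = 0.1 for each of these 4 genes (2-sided), the smallest value that 3 arrays against 3 allow, and p = 0.9 for Cyp11b2.

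Other steroid synthesis genes, some used by gonad and adrenal alike (Star, Cyp11a1) and some serving sex steroids (Cyp17a1, Hsd17b1, Hsd17b3), had larger differences. Of 8 measured genes of that list 7 fell, 0 rose and 1 did not pass, with a median of -2.84 log2. Over all genes, 4.3% were called lower and 2.64% higher. Cyp11a1, which cleaves the cholesterol side chain, measured 5.96, 9.41 and 5.98 log2 on mutants 3, 4 and 6, against 11.80, 11.85 and 11.81 log2 on wild types 1, 2 and 5. The difference was -4.70 ± 0.76 log2 (SE; limma adjusted p = 0.00817). Cyp17a1, the 17α-hydroxylase that routes steroids to androgens, differed by -4.29, Hsd17b3 by -3.51 and Star, which brings cholesterol into mitochondria, by -3.34 log2, all called. Hsd3b6 did not pass (-0.37 log2, limma adjusted p = 0.307). With eBayes using trend and robust estimation, 4 of these genes were called lower instead of 7.

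Within each array, the 5 adrenal-type genes were set against the mean of Star, Cyp11a1 and Cyp17a1. Relative to that mean they were higher in the mutant by 3.30 log2 (Cyp21a1), 3.56 (Cyp11b1), 4.09 (Cyp11b2), 3.10 (Mc2r) and 3.34 log2 (Mrap). These values follow from the larger falls of Star, Cyp11a1 and Cyp17a1 given above and add no separate result. By its own level, each of the 5 genes was lower in the mutant or not measurably different. The contrast was planned only for genes above the background mark in either group, and Mc2r, under it in both, fell outside that plan. Each exact permutation test gave p = 0.1, the smallest possible with 3 against 3, so this design cannot pass 0.05 in such a test. The adrenal-type genes also started close to background in wild type, where a fall of the size seen for Cyp11a1 could not have been measured.

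**Figure D2:**
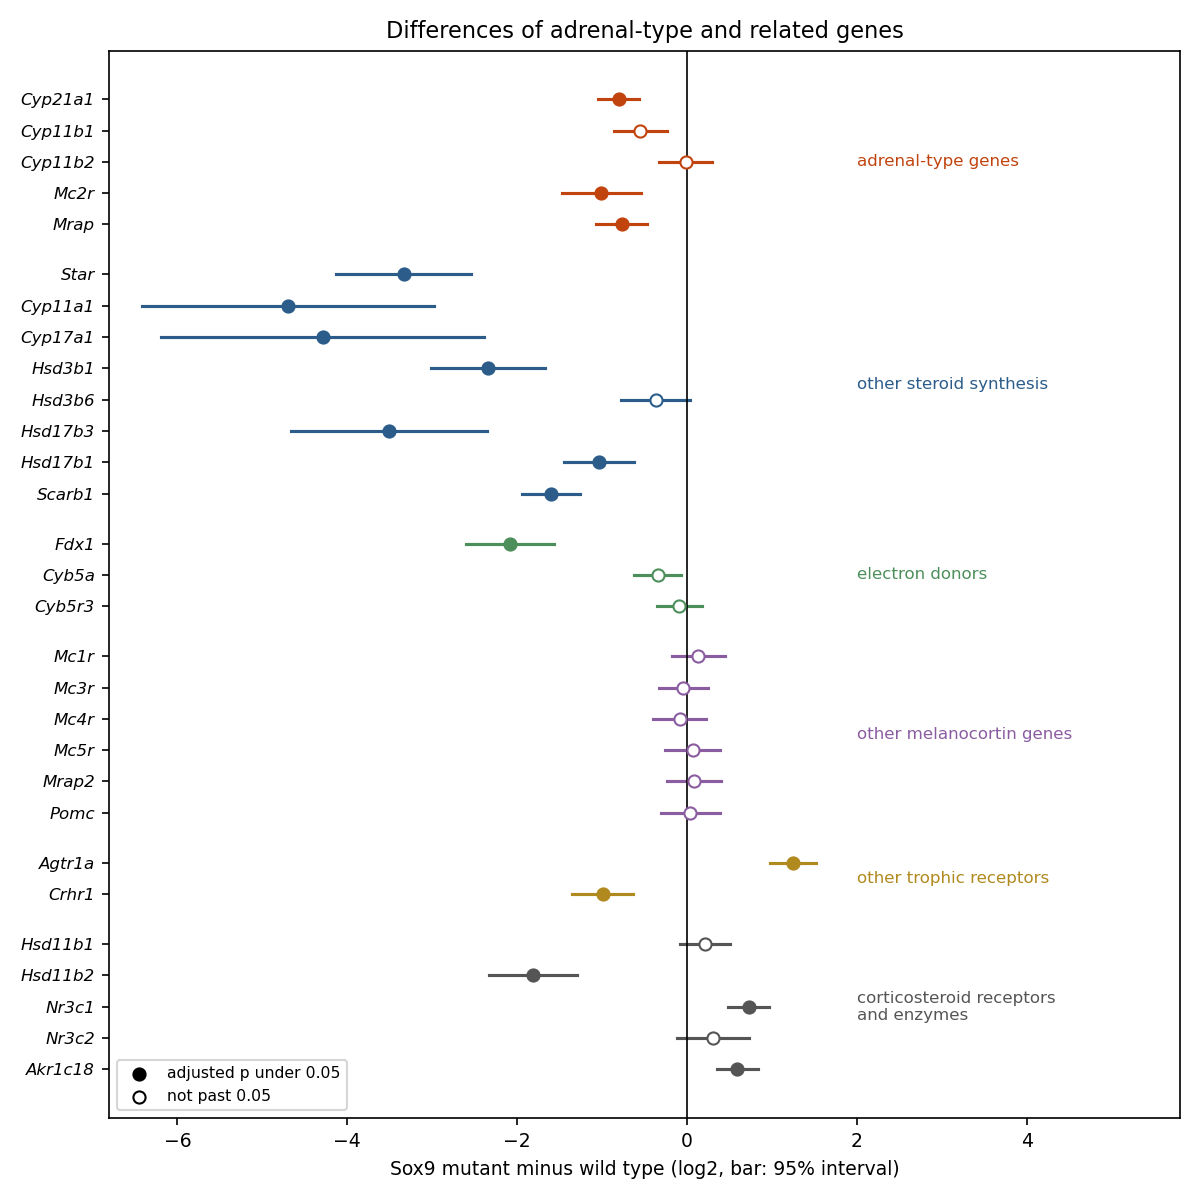
Difference between Sox9 mutant and wild type (log2, horizontal axis, negative where the mutant was lower) for the adrenal-type genes and for measured genes of related lists, with 95% intervals from limma; filled points passed an adjusted p of 0.05. Cyp21a1, Mc2r and Mrap sit between -0.77 and -1.01, whereas Cyp11a1 reaches -4.70 and the other melanocortin genes lie around 0.

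Mutant array 4 stood apart for the other steroid synthesis genes. It kept 3.44 log2 more Cyp11a1, 3.79 more Cyp17a1 and 1.51 more Star than the mean of mutants 3 and 6. On that array Cyp21a1, Mrap and Mc2r were 0.03, 0.12 and 0.15 log2 below the mean of mutants 3 and 6, and Cyp11b1 was 0.20 log2 below it. Cyp11b2 was 0.19 log2 above that mean, with mutant 4 the highest of the 3 mutant arrays. Except for Cyp11b2, these adrenal-type genes lay under the background mark on every mutant array, which limits what such small distances can show. Among the 857 genes called lower, mutant 4 was the highest of the 3 mutant arrays for 66.0% and the lowest for 7.58%. It was the lowest for all 3 called adrenal-type genes, by small distances. The list median against the wild-type mean was -0.63, -0.83 and -0.78 log2 on mutants 3, 4 and 6 for the adrenal-type genes, and -3.20, -1.69 and -3.35 log2 for the other steroid synthesis genes. This difference between arrays of 1 group is a description and was not tested.

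**Figure D3:**
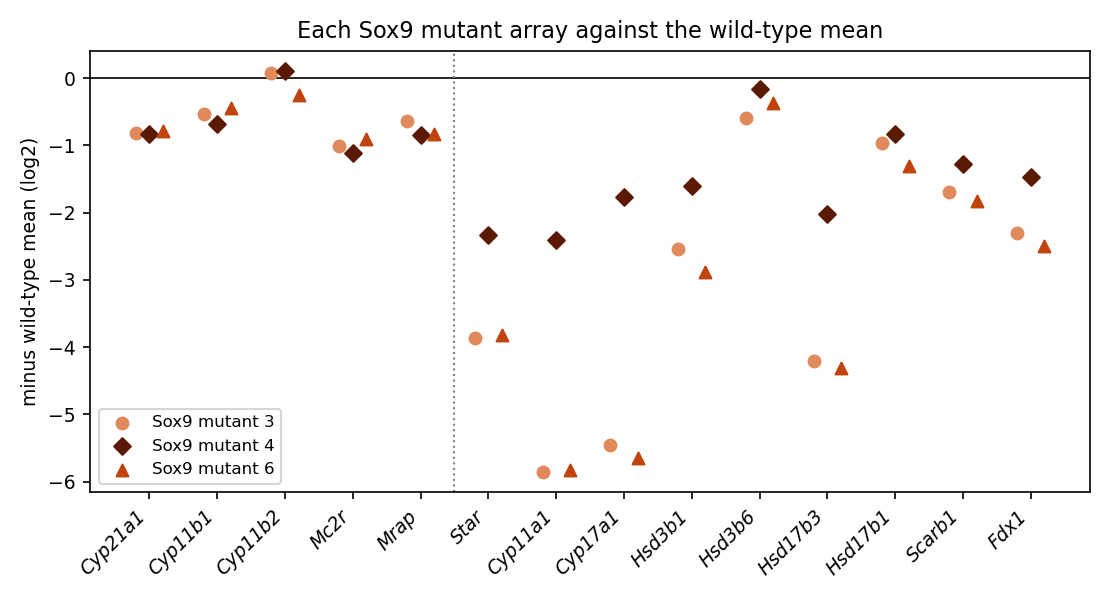
Value of each Sox9 mutant array minus the wild-type mean (log2, vertical axis) for the 5 adrenal-type genes, left of the dotted line, and for 8 other steroid synthesis genes and Fdx1, right of it. On mutant 4 (diamonds) Star, Cyp11a1, Cyp17a1, Hsd3b1, Hsd17b3 and Fdx1 lie well above mutants 3 and 6, while for Cyp21a1, Cyp11b1, Mc2r and Mrap the diamond is the lowest of the 3 points and for Cyp11b2 the highest.

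Adrenal P450 enzymes need electron donors, and a list of these was read in part. Fdxr and Por, also listed, were not analysed. Fdx1, the ferredoxin that feeds electrons to the mitochondrial enzymes Cyp11a1, Cyp11b1 and Cyp11b2, averaged 8.26 ± 0.54 log2 in the Sox9 mutant and 10.34 ± 0.04 log2 in wild type (SD, n = 3 each). It fell by 2.09 log2 (limma adjusted p = 0.00136). Of 3 measured genes in this list it was the single one that passed, where 4.3% of all genes were called lower. Cyb5a, a cytochrome b5, differed by -0.35 log2 (limma adjusted p = 0.154) and Cyb5r3, its reductase, by -0.09 (adjusted p = 0.755). The list's median was -0.35 log2.

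Of 6 other melanocortin genes examined, 0 passed the test in the limma fit, where 6.94% of all genes did. At an unadjusted p under 0.05 there were 0 of the 6, against 4324 of all 19937 genes. Their median was 0.05 log2, and both group means of 4 lay under the background mark. The highest mean was that of Mc4r, at 7.16 log2 in the mutant and 7.25 in wild type. Mrap2, a relative of Mrap, differed by 0.08 log2 (limma adjusted p = 0.823), and Pomc, the gene of the ACTH precursor, with 6.66 log2 in the mutant and 6.62 in wild type, by 0.04 (adjusted p = 0.933). Mc5r, which neighbours Mc2r in the gene table, differed by 0.07 log2 (adjusted p = 0.863).

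Both measured receptors for other hormones of steroid-producing tissue changed, in opposite directions, where 6.94% of all genes were called in either direction. Agtr1a, an angiotensin II receptor, measured 7.84, 7.90 and 8.07 log2 on mutants 3, 4 and 6, against 6.70, 6.56 and 6.80 log2 on wild types 1, 2 and 5. Its wild-type mean of 6.69 log2 lay close to the background mark of 6.67, with wild type 2 under it. Agtr1b, a second such receptor, was not analysed. Agtr1a rose by 1.25 ± 0.12 log2 (SE; limma adjusted p = 0.000762), while Cyp11b2 did not change measurably on the same arrays. A link between these genes was not tested. Crhr1, a receptor of corticotropin-releasing hormone, measured 7.12, 7.24 and 7.14 log2 in the mutant and 8.10, 7.88 and 8.50 log2 in wild type. It fell by 0.99 ± 0.16 log2 (SE; adjusted p = 0.00757), close to the value for Mc2r.

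Corticosteroid receptors and converting enzymes split. Hsd11b2, which inactivates corticosterone, averaged 7.78 ± 0.50 log2 in the Sox9 mutant and 9.59 ± 0.20 log2 in wild type (SD, n = 3 each), and fell by 1.81 log2 (limma adjusted p = 0.00251). Nr3c1, the glucocorticoid receptor, rose by 0.72 log2 (adjusted p = 0.00567) and Akr1c18, a 20α-hydroxysteroid dehydrogenase, by 0.59 (adjusted p = 0.0141). Both group means of Akr1c18 lay under the background mark. Of the 5 genes in this list 1 fell, 2 rose and 2 did not pass, with a median of 0.30 log2. Among all genes, 4.3% were called lower and 2.64% higher. Hsd11b1, which regenerates corticosterone, differed by 0.21 and Nr3c2, the mineralocorticoid receptor, by 0.30 log2, and neither passed (adjusted p = 0.448 and 0.442).

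Marker lists were read for the cells that such transcripts could come from. Chromaffin genes, which would mark adrenal medulla, had 0 of 7 measured members called in limma, near the 6.94% of all genes called. Of the 7, 1 had an unadjusted p under 0.05, as had 4324 of all 19937 genes. Their summed level on the linear scale was 570 to 712 in the mutant and 592 to 685 in wild type, and both group means of 4 lay under the mark. Chga, a protein of secretory granules, measured 7.04 log2 in the mutant and 7.00 in wild type, and Pnmt, which makes adrenaline, 6.83 in the mutant and 6.73 in wild type. In the adrenal cortex list Mgarp, with both group means under the mark, fell by 1.18 and Cited2 by 0.52, while Nr0b1 rose by 1.04 log2. The other 4 of 7 measured genes did not pass, and 5 of the 7 had an unadjusted p under 0.05. Dab2 (-0.38 log2, limma adjusted p = 0.0845) and Shh (-0.35, adjusted p = 0.158) were lower without passing. Cited2 had the highest level in the list, at 10.37 log2 in the mutant and 10.89 in wild type. That list summed to 2599 to 3358 in the mutant and 3360 to 3524 in wild type, and 5 of its 7 measured genes stood above the mark in at least 1 group. Hoxb9, of that list, measured 7.39 log2 in the mutant and 7.58 in wild type (limma adjusted p = 0.465).

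Fetal Leydig genes fell in 7 of 7 measured cases, with a median of -1.56 log2 and a summed level of 2909 to 5742 in the mutant and 13320 to 14127 in wild type. Cyp17a1 and Hsd3b1 of this list, and Hsd17b3 of the Sertoli list, also belong to the other steroid synthesis list. Insl3, also listed for fetal Leydig cells, was not analysed. Of all genes, 4.3% were called lower and 2.64% higher. Sertoli genes fell in 7 of 8 cases and pregranulosa genes rose in 8 of 8, among them Wnt4 by 1.12 log2. The part of these shifts in the values of the adrenal-type genes was not tested. Sox9 itself fell by 1.31 ± 0.14 log2 (SE; limma adjusted p = 0.00124), without the labels saying which part of the gene is floxed. Of the other lists, germ cell (0 of 3), endothelial (0 of 3), macrophage (0 of 3) and liver genes (0 of 7) had no calls in limma. They had 2, 2, 0 and 1 members at an unadjusted p under 0.05, a limit that 4324 of all 19937 genes met. With 6.94% of all genes called, 0 calls in lists this short lie near that share. Mesonephric genes had 1 lower and 1 higher of 5, and erythroid genes 1 lower of 2. Correlations between arrays were 0.984 to 0.992 within groups and 0.969 to 0.985 between them.

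Wild type 5 stood apart by its liver genes. The liver list summed to at most 700 in the mutant and 7360 on that array, against a lowest wild-type sum of 583. Without wild type 5, Cyp21a1 differed by -0.84 log2 (limma adjusted p = 0.0108) and Mrap by -0.72 (adjusted p = 0.0436), while Mc2r, at -0.89 log2, lost its call (adjusted p = 0.0761). Leaving out wild type 5 and mutant 4 together gave -0.83 log2 for Cyp21a1 (adjusted p = 0.0355), -0.68 for Mrap (0.121) and -0.83 for Mc2r (0.179), so that 1 of the 5 genes was called instead of 3.

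Genes that flank the adrenal-type genes were read as well. Of 16 neighbours, the nearest 2 measured genes on each side of each gene in the GRCm38.p6 table, 15 did not pass and 1 fell, a share near the 6.94% of all genes called. The gene that fell was Ly6e, near Cyp11b2, at -0.99 log2 (limma adjusted p = 0.00221). It measured 10.07 log2 in the mutant and 11.06 in wild type, and was named after its value was seen.

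Genes with the most similar profiles over the 6 arrays were sought for the 3 called genes, by the root mean square (RMS) difference between values centred on each gene's own mean. For Cyp21a1 these were Nmi, Tmc7, Kcnk3, Tgfb1 and Chst2, at 0.057 to 0.069 log2. Kcnk3, a potassium channel, measured 8.06 log2 in the mutant and 8.81 in wild type. For Mrap they were Htra3, Pxdc1, Unc119, Mcrip2 and Dcn, at 0.081 to 0.095 log2. For Mc2r they were Smim41, Fbp1, Gfra2, Timp1 and Crhr1, at 0.158 to 0.199 log2, a looser match. Genes under the background mark on every array were left out as candidates, so Mc2r could not be listed for another gene. Neither Cyp21a1 nor Mrap was among the 5 closest of the other or of Mc2r. With 6 arrays in 2 groups, a fall of similar size is enough to bring genes close in this measure.

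**Figure D4:**
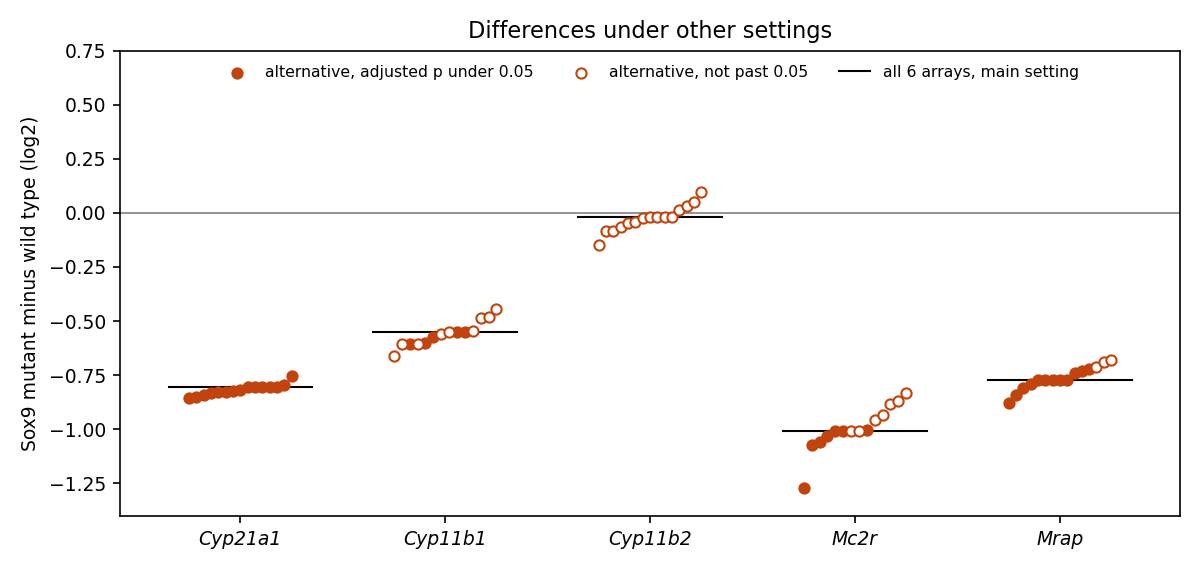
Difference between Sox9 mutant and wild type (log2, vertical axis) for each gene under the alternative settings, one point per setting ordered by value; filled points passed an adjusted p of 0.05, and the black line is the value with all 6 arrays. Cyp21a1 stays between -0.86 and -0.75 with each point filled, Mrap and Mc2r each have open points, and Cyp11b2 lies on both sides of 0.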

How the data were processed

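The deposited table holds log2 values, which the authors obtained with RMA per the submitters' processing notes (background correction, quantile normalization between arrays, summary per probe set); its version and settings are not given in the sources. Each array took 300 ng of total RNA, per the labels. Values ran from 2.45 to 14.49, with array medians of 6.99 to 7.07. Of 34760 rows, 6573 with identifiers below the lowest annotated one were left out as controls, leaving 28187 probe sets. Genes were named from 21640 probe sets annotated to 1 gene, of which 21553 matched the GRCm38.p6 table (0 symbols changed), and were represented by the probe set with the highest mean. The genotype comparison used lmFit and eBayes of limma 3.58.1 under R 4.3.3 (2-sided, all 6 arrays, no covariates), and the fit was tested on simulated data. Errors are SDs over arrays or moderated SEs, and the number of arrays limits precision. Summed levels add values taken out of the log2 scale.

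The 5 genes, the lists (10 other steroid synthesis genes, 5 electron donors, 6 melanocortin genes, 5 trophic receptors, 5 corticosteroid genes and 11 sets of cell markers) and the tests were chosen with earlier results of these data known. Named genes were the 5, list members with the largest called changes or highest means, and the 5 closest profiles of each called gene; Hsd3b6, Mc5r, Mrap2, Hoxb9, Wnt4, Ly6e, Kcnk3 and list members beyond those were added after their values were seen. Neither Srd5a1, Cyp19a1, Fdxr, Por, Lhcgr, Agtr1b nor Prlr was analysed here. Of the 5 genes, 0 matched the RefSeq promoter table used for sequences. Alternatives were other scalings, filters on dim probe sets, control rows kept, variance settings, array weights, numbers 5 and 6 as a hypothetical batch, numbers 1 to 4 alone, and leaving out arrays. Figures were drawn with matplotlib 3.10.9.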

Additional observations from a re-analysis of the deposited data

How the results depend on the processing

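Cyp21a1 was lower and called in 15 of 15 alternatives in which it was tested, with adjusted p of 0.00148 to 0.0355 (limma throughout). Mrap was called in 12 of 15, Mc2r in 7 of 14 and Cyp11b1 in 5 of 14, each lower in all of them. Each of the 5 genes has 1 probe set, so averaging probe sets gave no other value. Filtering at the background mark removed Cyp11b1 and Mc2r and left 2 genes called lower; keeping the upper part of probe sets by mean removed all 5, so 0 could be called. With control rows kept, 534 probe sets were lower and 372 higher (981 and 630 otherwise), Mc2r gave -1.01 log2 (adjusted p = 0.0614) and 2 of the 5 genes were called. With numbers 5 and 6 as a batch term 1059 probe sets were higher. Among numbers 1 to 4 alone 612 were lower, Mc2r gave -0.94 (0.0744), Mrap -0.69 (0.0606), Cyp11b2 0.030 log2, and 1 gene was called; numbers 5 and 6, with 1 array of each genotype, give no test. Without wild type 5 and mutant 4, an alternative chosen after seeing the data, 474 were lower and 237 higher, Mc2r gave -0.83, Mrap -0.68, and 1 gene was called. Cyp11b1 passed with quantile normalization (-0.61), a common median (-0.57), trend and robust (-0.55), array weights (-0.60) and the batch term (-0.55 log2). Cyp11b2 was 0.014 log2 with array weights. Leaving out 1 array gave 372 to 867 probe sets lower and 312 to 697 higher, 1 to 3 of the 5 genes called, and differences of -1.27 to -0.87 (Mc2r), -0.88 to -0.71 (Mrap) and -0.084 to 0.096 log2 (Cyp11b2). The causes were not tested. With the 90th percentile of receptor probe sets as the mark (6.20 log2), 4 of the 5 genes exceeded it in the mutant instead of 1. No paired analysis was possible because the groups share no replicate number. Values near background limit what can be measured of Mc2r and of the mutant levels.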
